A study of Pangasianodon hypophthalmus with 14 samples.

Results

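Ion channel subunit genes were followed through the early development of tra catfish (*Pangasianodon hypophthalmus*), a freshwater fish that comes to breathe air with its swim bladder. They were taken by name: every gene of the count table whose name starts with kcn (potassium channels), with cacn (calcium channels) or with scn and a digit (sodium channels), and *kcnc2*, which the table lists as LOC113534903. This gave 67 of 21656 genes, namely 47 potassium, 15 calcium and 5 sodium channel genes. Of the 67 members, 62 had enough counts to be tested, and 56 had at least 10 counts in at least 8 of the 14 libraries. *kcnh4*, *kcnj1*, *kcnk9*, *kcns3* and *kcnv1* were not tested, and none of them exceeded 17 counts in a library. RNA had been sequenced from whole embryos and larvae aged 2, 4, 6 or 8 days post fertilization (dpf), or 9, 10 or 11 dpf, with 2 libraries for each of the 7 stages, each replicate pooled from 4 animals per the study's methods. The labels give age and whole-body tissue for all 14 libraries and name no strain, sex or treatment, so the groups differ by age alone as far as the labels go. The comparisons are those of the study, each stage against the stage before it, across the time in which air breathing begins, and in addition 11 against 2 dpf.

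Voltage-gated channels open when the membrane potential changes. Sodium channels start the action potential, calcium channels turn it into a calcium signal for contraction or transmitter release, and potassium channels end it. A pore subunit carries the current, and beta, alpha2delta and gamma subunits set where and how the pore works. In skeletal muscle the calcium channel of the transverse tubule acts as the voltage sensor that releases calcium from the sarcoplasmic reticulum, and in neurons other calcium channel pores trigger transmitter release at the terminal.

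The label "voltage-gated" covers only some of the members. Inward rectifiers (kcnj, 7 members) and tandem-pore leak channels (kcnk, 8 members) lack the classical voltage sensor, *kcnn1* and *kcnn4* are opened by calcium, *cacng2*, *cacng4* and *cacng5* belong to a gamma family best known for partnering glutamate receptors, and 8 members are auxiliary subunits or regulators of potassium channels. A further 98 genes of the same families are listed only under LOC identifiers and were named from a RefSeq table. They are outside the members and are given by counts, so that a family is not shown whole by its members, and reads of close paralogs may have been divided between a member and such a gene.

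Assigned counts ranged from 4112131 (4 dpf, replicate 1) to 11609823 (8 dpf, replicate 2) per library, and members took between 0.0705% (4 dpf, replicate 2) and 0.128% (9 dpf, replicate 2) of them. Values are CPM (counts scaled for library size) after TMM normalization, which makes 3 counts worth 0.289 to 0.720 CPM. These floors cover counting error only. The 2 libraries of a stage differed most at 2 and 4 dpf. A chi-square per member gene, for which sampling of reads alone gives about 1, was 6.76 at 2 dpf and 5.69 at 4 dpf, and between 1.19 and 1.58 at the other stages. The pairs of 6, 9 and 11 dpf lay close to sampling noise over all genes (1.13, 1.15 and 1.29). The study's methods describe 2 pools of animals per stage, but also say that RNA of both pools went in equal amounts into library construction, so that the 2 libraries of a stage may be technical repeats of a mixed pool. All p-values then measure only the spread between these libraries, which may be less than the spread between pools of animals. Each list of tissue and cell type markers was detected, though not every marker in it. Some chosen markers, such as *vmhc* for heart and the cone opsins for photoreceptors, matched no gene name and are missing from the sums. Summed levels ran from 579 to 831 CPM for neurons, 13264 to 58462 CPM for skeletal muscle, 60.3 to 109 CPM for heart, 129 to 213 CPM for photoreceptors, 980 to 2256 CPM for glia and 390 to 550 CPM for ionocytes. The photoreceptor list was also summed without 3 RhoA and RhoB GTPase genes that share the stem of rhodopsin, which left 26.1 to 76.5 CPM. The neuron list holds, beside *syt1*, several other synaptotagmin genes that share its stem and were not chosen as markers.

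Over the whole series, 29 of 62 tested members varied between stages, against 50.8% of all 19310 tested genes (edgeR's quasi-likelihood test over all stages, with a Benjamini-Hochberg adjusted p under 0.05 and fitted stage levels spanning over 1 on the log2 scale). The 29 were 19 of 42 potassium, 7 of 15 calcium and 3 of 5 sodium channel genes. The share is near that of all genes. The largest range was that of *kcnj11* (2.5, adjusted p = 1.5e-07), followed by *kcnh8* (2.35, with 1 to 27 counts per library), *scn4a* (2.33, adjusted p = 1.9e-07) and *kcnn4* (2.20, adjusted p = 7.1e-06). Members were highest on average at 9 or 10 dpf more often than at other stages, with 13 members (21.0%) at each, where 11.5% and 10.4% of all tested genes were highest. Stage 2 dpf was the lowest for 19 members (30.6%), against 20.0% of all tested genes. Because whole animals were sequenced, a lower level may mean fewer cells of a type or less RNA per cell, and these cannot be told apart.

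**Figure D1:**
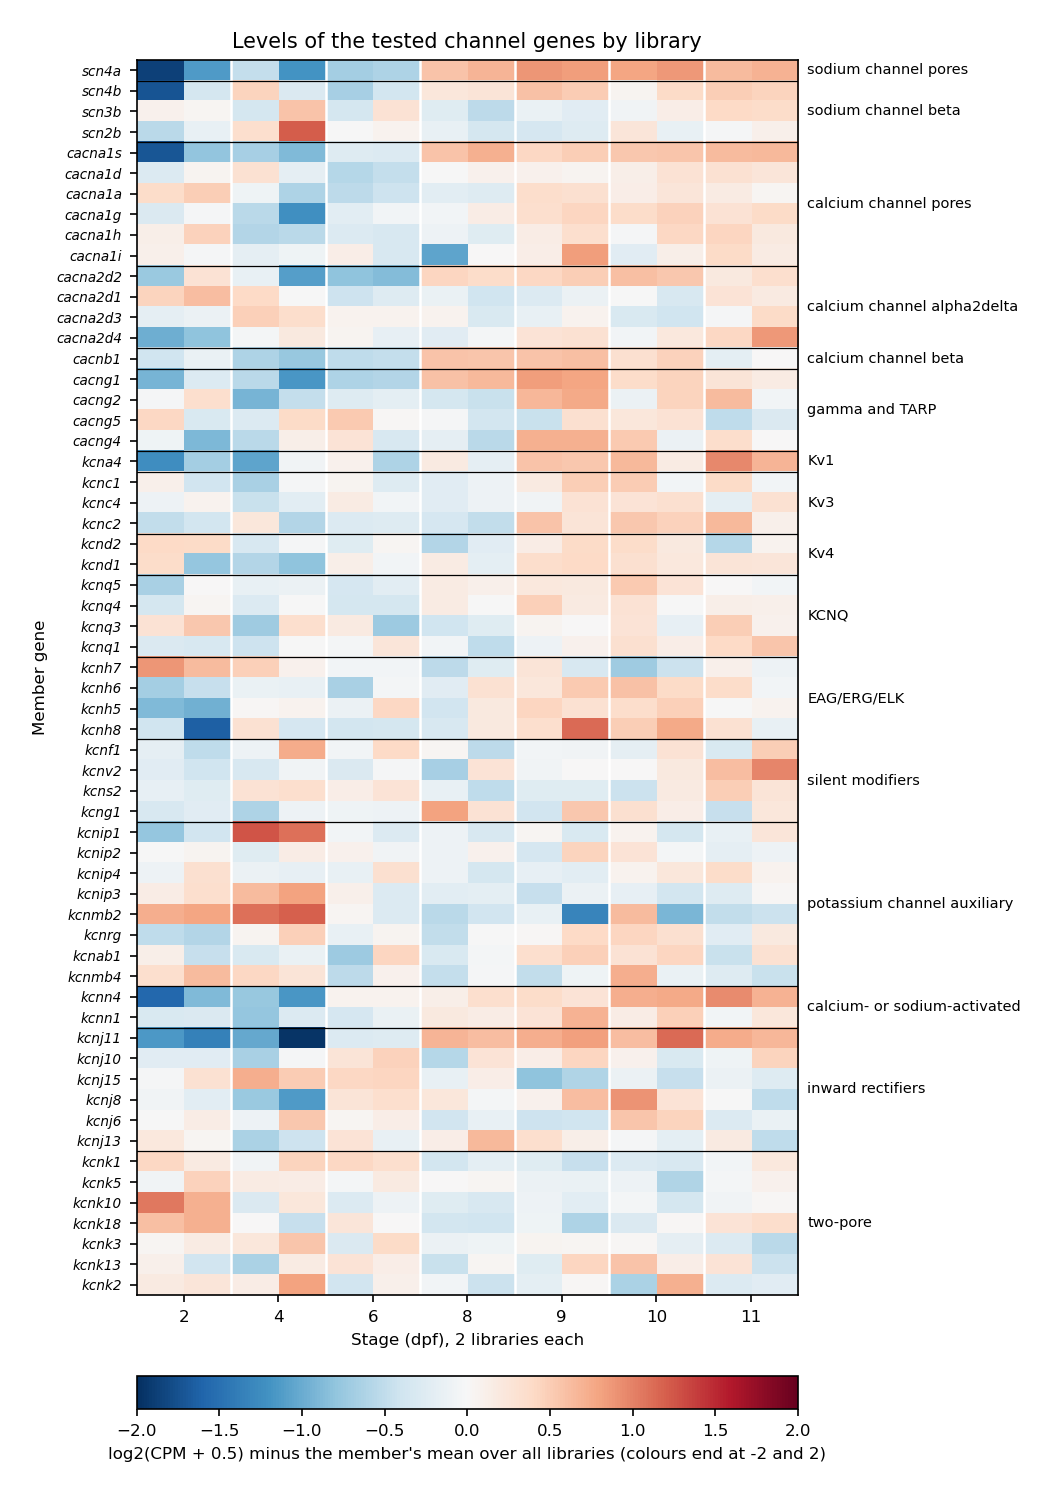
Levels of 60 of the 62 tested members in each of the 14 libraries, as log2(CPM + 0.5) minus the member's own mean over all libraries, with rows grouped by subunit type and 2 columns per stage. Red is above and blue below that mean. *scn4a*, *cacna1s*, *cacnb1*, *cacng1* and *kcnj11* turn red between 6 and 8 dpf, while *kcnip1* and *kcnmb2* are red at 4 dpf.

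Between 6 and 8 dpf a step was seen in the sodium channel pore of skeletal muscle and in subunits of calcium channels, though not in every subunit of the muscle calcium channel. At 8 against 6 dpf 4 of 62 members were called, all of them higher, against 5.74% of all tested genes called and 3.02% called higher. A call required both a log2 fold change (log2FC) larger than 1 in size and an adjusted p under 0.05, and every log2FC here is the later over the earlier stage. The 4 were *scn4a*, *cacna2d2*, *cacng1* and *cacnb1*. Their share of the members, 6.45%, was near the 5.74% of all genes. The median log2FC was -0.09 over the members, with 38 of 62 below 0, and -0.05 over all tested genes.

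*scn4a* encodes the pore of the sodium channel that carries the action potential along the muscle fibre, and it is the only sodium channel pore among the members. It stood at 17.9 and 30.3 CPM at 2 dpf, 47.8 and 28.8 at 4 dpf, 41.3 and 43.4 at 6 dpf, 99.3 and 107 at 8 dpf, 123 and 120 at 9 dpf, 116 and 122 at 10 dpf, then 104 and 108 at 11 dpf. All 8 libraries from 8 dpf on lay above all 6 earlier libraries, and how many of all genes did so was not counted. The difference of 8 against 6 dpf was a log2FC of 1.29 (standard error 0.21, edgeR adjusted p = 0.00053). Against 2 dpf, 11 dpf was higher by 2.13 (standard error 0.22, edgeR adjusted p = 8.2e-07).

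*cacna1s*, the pore and voltage sensor of the muscle calcium channel, had the most counts of the calcium channel pores. Its libraries held 55.7 and 107 CPM at 2 dpf, 116 and 99.7 at 4 dpf, 155 and 153 at 6 dpf, 275 and 303 at 8 dpf, 246 and 259 at 9 dpf, 267 and 272 at 10 dpf, then 288 and 288 at 11 dpf. The stages from 8 dpf on did not overlap with the earlier ones, which was likewise not counted over all genes. The log2FC of 8 against 6 dpf was 0.91 (standard error 0.21, edgeR adjusted p = 0.0062), short of the size a call needed, and that of 11 against 2 dpf was 1.82 (standard error 0.22, edgeR adjusted p = 4.2e-06).

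Other subunits of this channel complex have roles around that pore. *cacnb1* encodes the beta subunit that brings the pore to the membrane. It held 26.7 and 32.0 CPM at 2 dpf, 22.8 and 20.5 at 4 dpf, 24.7 and 25.1 at 6 dpf, 52.5 and 52.0 at 8 dpf, 52.3 and 53.4 at 9 dpf, 44.3 and 48.4 at 10 dpf, then 30.6 and 35.5 at 11 dpf. Thus *cacnb1* was higher at 8 than at 6 dpf (log2FC 1.07, standard error 0.14, edgeR adjusted p = 9.4e-05), while the log2FC of 11 against 2 dpf was 0.17 (adjusted p = 0.35 in the same test). *cacng1*, the gamma subunit of the muscle channel, had 25.4 and 25.8 CPM at 6 dpf, 58.9 and 61.6 at 8 dpf, a top of 70.5 and 67.8 at 9 dpf, and 46.7 and 43.9 at 11 dpf. Its log2FC of 8 against 6 dpf was 1.24 (standard error 0.19, edgeR adjusted p = 0.00035), and it was called in all 21 alternatives tried.

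*cacna2d2* encodes an alpha2delta subunit, which helps calcium channels reach the surface, and had the most counts of its group. It was uneven between libraries early on, with 87.8 and 179 CPM at 2 dpf and 133 and 68.2 at 4 dpf, and stood at 83.9 and 80.5 at 6 dpf, 198 and 190 at 8 dpf, 197 and 208 at 9 dpf, 224 and 213 at 10 dpf, then 168 and 185 at 11 dpf. Libraries of 2 dpf overlapped with the late stages, so the step from 6 to 8 dpf (log2FC 1.24, standard error 0.28, edgeR adjusted p = 0.0048) started from a low. *cacna2d1*, which encodes the alpha2delta subunit known from the skeletal muscle channel, was not called here. It had 27.6 and 23.0 CPM at 8 dpf, against 22.8 and 25.4 CPM at 6 dpf (log2FC 0.07, standard error 0.17, edgeR adjusted p = 0.81), and was at its highest at 2 dpf, with 41.5 and 46.9 CPM. At 8 against 6 dpf the log2FC of the other alpha2delta members was -0.21 for *cacna2d3* (adjusted p = 0.46) and -0.08 for *cacna2d4* (adjusted p = 0.84), so that *cacna2d2* was the 1 of 4 alpha2delta members called. *cacna2d1* and *cacna2d3* are named after their values were seen. When each pair of 6, 9 and 11 dpf was merged into 1 library, the adjusted p was 0.13 for *cacna2d2* and 0.058 for *scn4a*, and without replicate 2 of 6 dpf it was 0.056 for *cacna2d2*, with log2FC still 1.24, 1.29 and 1.21. Scaled by library totals, *cacnb1* had a log2FC of 0.86 and was not called, and of the 4 members then called 3 were higher and 1 was lower.

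*scn4b* encodes a beta subunit that tunes sodium channel gating. Libraries of 2 dpf held 3.81 and 10.7 CPM and those of 4 dpf 18.7 and 11.1, followed by 8.44 and 10.5 at 6 dpf, 16.2 and 16.6 at 8 dpf, 20.7 and 19.7 at 9 dpf, 14.2 and 17.9 at 10 dpf, then 19.5 and 18.8 at 11 dpf. It was called higher at 11 than at 2 dpf (log2FC 1.39, standard error 0.30, edgeR adjusted p = 0.0015), a call that rested on replicate 1 of 2 dpf, without which the log2FC was 0.84.

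*kcnj11* encodes the pore of the ATP-sensitive potassium channel, which opens when ATP falls and is known from muscle and insulin cells. It read 7.20 and 6.19 CPM at 2 dpf, 7.92 and 3.90 at 4 dpf, 13.6 and 13.7 at 6 dpf, 27.0 and 25.7 at 8 dpf, 27.9 and 29.7 at 9 dpf, 25.7 and 37.0 at 10 dpf, then 28.1 and 26.7 at 11 dpf. The level rose by 1.30 on the log2 scale at 6 against 4 dpf (standard error 0.26, edgeR adjusted p = 0.0013), and the log2FC of 8 against 6 dpf was 0.94 (adjusted p = 0.0032, short of the size for a call). At 11 against 2 dpf the log2FC was 2.03 (standard error 0.22, edgeR adjusted p = 1.8e-06). Without replicate 2 of 4 dpf the first value was 0.80 and was not called, while the call of 11 against 2 dpf held in all 21 alternatives.

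**Figure D2:**
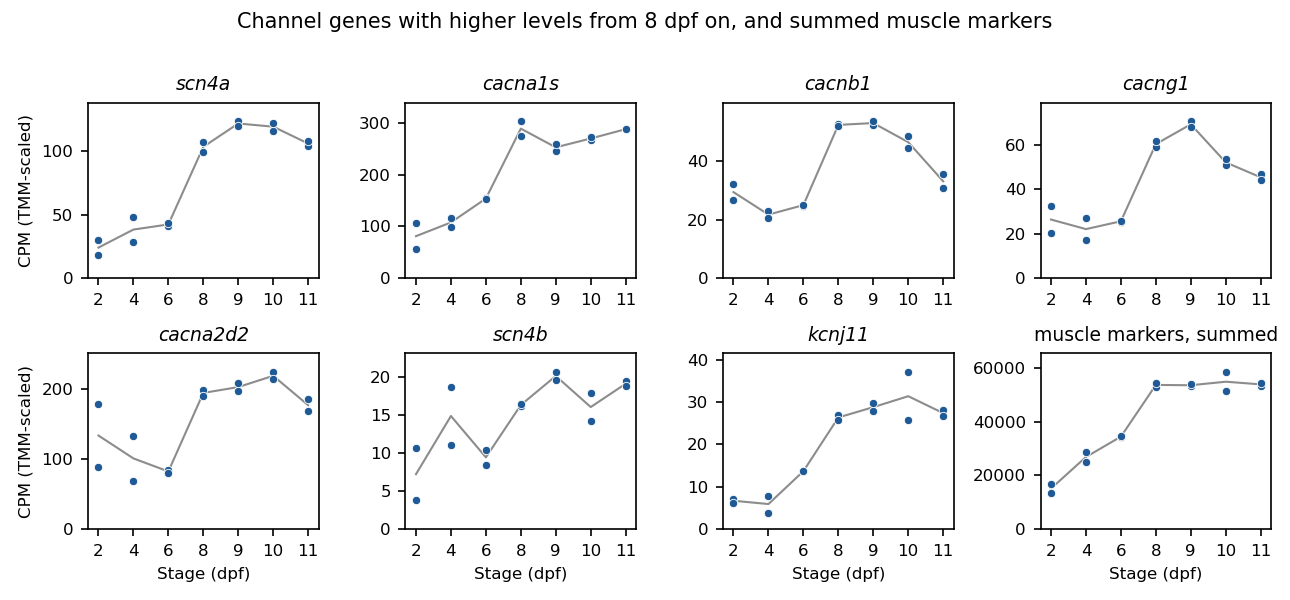
TMM-scaled CPM (y axes start at 0) of 7 members and of the summed skeletal muscle markers by stage in dpf. Points are the 2 libraries of a stage and the grey line joins stage means. *scn4a* stands at 99.3 CPM or more in every library from 8 dpf on and at 47.8 CPM or less before, and the summed markers at 51350 CPM or more and at 34681 CPM or less.

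Skeletal muscle markers were also higher at 8 than at 6 dpf. Their sum was 52876 and 54532 CPM at 8 dpf, against 34181 and 34681 CPM at 6 dpf, with 8 of 23 tested markers called higher and 0 lower. At 11 against 2 dpf 20 of 23 were called higher. At 4 against 2 dpf the marker list differed from some of the members, with 14 of 23 markers called higher and 0 lower. The markers called higher at 8 against 6 dpf were divided there. *mybpc2* (log2FC 1.46), *pvalb7* (1.66) and *myoz1* (1.09) were called higher at 4 against 2 dpf too. *actn3* (-0.235), *actc1a* (-0.697), *actc1b* (0.178), *neb* (0.358) and *mybpc2b* (0.333) were not called at 4 against 2 dpf. The log2FC there was -0.45 for *cacnb1*, -0.29 for *cacng1*, -0.42 for *cacna2d2* and -0.27 for *kcnj11*. It was 0.64 for *scn4a*, 0.40 for *cacna1s* and 0.98 for *scn4b*. At 11 dpf the markers summed to 53321 and 54503 CPM, while *cacnb1*, *cacng1* and *cacna2d2* lay below both of their 8 dpf libraries. *scn4a*, *cacna1s*, *scn4b* and *kcnj11* did not. The genes that work with the muscle calcium channel in excitation-contraction coupling summed to 10986 and 11245 CPM at 8 dpf, against 5239 and 5277 CPM at 6 dpf. Of 20 tested, 5 were called higher at 8 against 6 dpf and 0 lower. These were the ryanodine receptor genes *ryr1a* (log2FC 1.05) and *ryr3* (1.63), which release calcium, *jph1* (1.47), whose junctophilin ties the membranes together, *trdn* (1.30), which encodes triadin, and *atp2a1l* (1.13), a calcium pump gene. At 4 against 2 dpf 2 of the 20 excitation-contraction genes were called higher and 4 lower, with a median log2FC of -0.36. How far the amount of muscle accounts for the members' values was not tested. Heart markers went the other way, with 62.5 and 62.9 CPM at 8 dpf, against 103 and 105 CPM at 6 dpf, and 2 of 8 called lower. Among the channel genes listed by LOC identifier, 4 were called higher and 2 lower at 8 against 6 dpf, of 86 tested. By log2FC the higher ones were *scn4ab* (1.03), *cacng6b* (1.32), *kcna7* (1.14) and *kcnj12b* (1.18). The lower ones were *kcnj3a* (-1.23) and *kcnj11l* (-1.0), while the member *kcnj11* had 0.94 in this comparison.

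Between 4 and 2 dpf 6 of 62 members were called, 5 higher and 1 lower, against 19.8% of all tested genes, 13.8% higher and 5.99% lower. The share of members was below that of all genes. The largest change was that of *kcnip1*, which encodes a calcium-binding protein that attaches to the pores of A-type (Kv4) potassium channels. It had 12.5 and 11.2 CPM at 4 dpf, against 2.68 and 3.69 CPM at 2 dpf, and afterwards between 3.79 and 5.96 CPM in the 10 libraries from 6 to 11 dpf. *kcnip1* thus rose by 1.88 on the log2 scale at 4 dpf (standard error 0.26, edgeR adjusted p = 2.5e-05) and fell by 1.41 at 6 dpf (standard error 0.24, edgeR adjusted p = 0.00034), and both calls held in all 21 alternatives.

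The Kv4 pores that such proteins bind did not share this course. *kcnd2*, which had the most counts of the 2 Kv4 members, read 7.48 and 7.38 CPM at 2 dpf, 4.32 and 5.40 at 4 dpf, 4.57 and 5.69 at 6 dpf, 3.51 and 4.62 at 8 dpf, 6.16 and 7.31 at 9 dpf, 7.29 and 6.42 at 10 dpf, then 3.55 and 5.80 at 11 dpf. Its log2FC of 4 against 2 dpf was -0.58 (adjusted p = 0.087), and neither Kv4 member was called over the series. The Kv4 partner genes *dpp6b* and *dpp10* had log2FC of -0.23 and -0.40 at 4 against 2 dpf, and 0 of 2 were called in any comparison. *kcnip3*, a close relative of *kcnip1* also known as a transcriptional repressor, stood at 6.72 and 7.65 CPM at 4 dpf, against 4.66 and 5.40 CPM at 2 dpf, while *kcnip2* and *kcnip4* stayed between 3.37 and 6.89 CPM in all libraries.

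Photoreceptor markers without the GTPase genes also peaked at 4 dpf, with 59.5 and 76.5 CPM, against 27.1 and 27.7 CPM at 2 dpf, and 4 of 9 tested were called lower at 6 against 4 dpf. Summed glial markers stood at 2095 and 2256 CPM at 4 dpf, against 1324 and 1608 CPM at 2 dpf. The glial genes were divided, with 5 of 11 tested above 0 and a median log2FC of -0.07. Of these 11, 3 were called higher and 1 lower. The neuron list went the other way, with 579 to 600 CPM at 4 dpf, against 698 to 831 CPM at 2 dpf. Of its 26 tested genes 1 was called higher and 4 lower. Heart markers stood at 106 to 109 CPM at 4 dpf, against 75.5 to 93.2 CPM at 2 dpf. Muscle markers had 25091 to 28625 against 13264 to 16931 CPM, and ionocyte markers 390 to 550 against 473 to 487 CPM. The part of any of these cell types in the value of *kcnip1* was not tested.

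The other members called higher at 4 dpf were *scn2b*, *kcnh5*, *cacna2d4* and *kcnrg*. *scn2b*, the gene of a sodium channel beta subunit that is linked to its pore by a disulfide bond, had 14.9 and 27.6 CPM at 4 dpf, against 7.90 and 10.5 CPM at 2 dpf (log2FC 1.24, standard error 0.24, edgeR adjusted p = 0.00059), and 9.05 to 13.9 CPM from 6 dpf on. *kcnh5*, an ether-a-go-go channel gene of neurons, had 3.60 and 3.75 CPM at 4 dpf, against 1.69 and 1.58 CPM at 2 dpf (log2FC 1.16, standard error 0.36, edgeR adjusted p = 0.016). *cacna2d4*, an alpha2delta gene known from the retina, had 5.28 and 6.30 CPM at 4 dpf, against 2.54 and 2.90 CPM at 2 dpf (log2FC 1.10, standard error 0.29, edgeR adjusted p = 0.0051). In each of these 3 genes both libraries of 4 dpf lay above both of 2 dpf, which was not counted over all genes. Because the genes were named for their calls in this same comparison, that separation adds no weight to the calls.

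*kcnrg*, a regulator that holds back Kv1 channels in human cells, was at the edge of the call with 3.36 and 4.65 CPM at 4 dpf, against 2.12 and 1.98 CPM at 2 dpf (log2FC 1.0, standard error 0.34, edgeR adjusted p = 0.025), and was not called in 11 of 21 alternatives. The lower one, *kcnk18*, encodes a calcineurin-regulated leak channel. It held 3.12 and 2.10 CPM at 4 dpf, against 4.94 and 5.40 CPM at 2 dpf (log2FC -1.04, standard error 0.31, edgeR adjusted p = 0.013), and 5 of 21 alternatives did not call it, 2 of them without a library (-0.98 when replicate 2 of 2 dpf was dropped, and -0.71 for replicate 2 of 4 dpf).

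Several of these calls rested on replicate 2 of 4 dpf. Without replicate 2 of 4 dpf the log2FC of 4 against 2 dpf was 0.70 for *scn2b*, 1.14 for *kcnh5* (adjusted p = 0.075), 0.96 for *cacna2d4* and 0.73 for *kcnrg*, none of them called, while without replicate 1 of that stage all 26 called differences of the members were kept and 10 members were called at 4 against 2 dpf instead of 6. *kcnh5* was also not called without replicate 1 (adjusted p = 0.0502) or replicate 2 (adjusted p = 0.068) of 2 dpf, and *kcnrg* also not without either library of 2 or 10 dpf or replicate 2 of 11 dpf (log2FC 0.95 to 1.05). Under library totals 8 members were called at 4 against 2 dpf, 1 higher and 7 lower, and 2 of the 8 were among the 6 above. That scaling moved the median of all genes in this comparison by -0.25 on the log2 scale.

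At 6 against 4 dpf 5 of 62 members were called, against 11.3% of all tested genes. The higher ones were 3 potassium channel genes, against 4.81% of all genes called higher. The lower ones were *kcnip1* and *kcnmb2*, against 6.48% called lower. Beside *kcnj11*, its relative *kcnj8*, the pore of the ATP-sensitive channel of blood vessels, held 4.37 and 4.66 CPM at 6 dpf, against 1.92 and 1.35 CPM at 4 dpf (log2FC 1.5, standard error 0.39, edgeR adjusted p = 0.0074). *kcnj8* was also low at 4 dpf beside 2 dpf, where it had 3.39 and 3.03 CPM.

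*kcnn4* encodes a calcium-activated potassium channel known from blood cells and epithelia. Its level was 1.69 and 3.03 CPM at 2 dpf, 3.36 and 2.40 at 4 dpf, 6.30 and 6.34 at 6 dpf, 6.56 and 7.70 at 8 dpf, 7.86 and 7.31 at 9 dpf, 10.2 and 10.5 at 10 dpf, then 12.0 and 10.0 at 11 dpf. All libraries from 6 dpf on lay above those of 2 and 4 dpf, which was not counted over all genes. It was higher at 6 than at 4 dpf (log2FC 1.18, standard error 0.29, edgeR adjusted p = 0.0052) and had the largest log2FC of all members at 11 against 2 dpf (2.20, standard error 0.26, edgeR adjusted p = 3.9e-06).

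*kcnmb2* encodes a beta subunit of the large-conductance calcium-activated channel. It held 3.66 and 2.85 CPM at 6 dpf, against 8.16 and 8.70 CPM at 4 dpf (log2FC -1.36, standard error 0.38, edgeR adjusted p = 0.011), and 2.36 and 2.51 CPM at 11 dpf, against 6.21 and 6.45 CPM at 2 dpf (log2FC -1.37, standard error 0.42, edgeR adjusted p = 0.014). The second *kcnmb2* copy, listed by LOC identifier, was also called lower at 6 against 4 dpf (-1.09), but was not called at 11 against 2 dpf (-0.598). *kcnmb2* spread between libraries of a stage at 9 and 10 dpf, with 3.14 and 1.13 and with 5.73 and 1.65 CPM. Without replicate 2 of 4 dpf, *kcnj8* (1.24, adjusted p = 0.076), *kcnj11* (0.80) and *kcnn4* (0.92) were not called at 6 dpf, and 2 members were called in all. *kcnmb2* was not called at 6 dpf without replicate 2 of 6 dpf (adjusted p = 0.084), nor at 11 dpf without replicate 2 of 2 dpf (0.055) or replicate 1 (0.084) or 2 (0.066) of 11 dpf, all by edgeR.

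**Figure D3:**
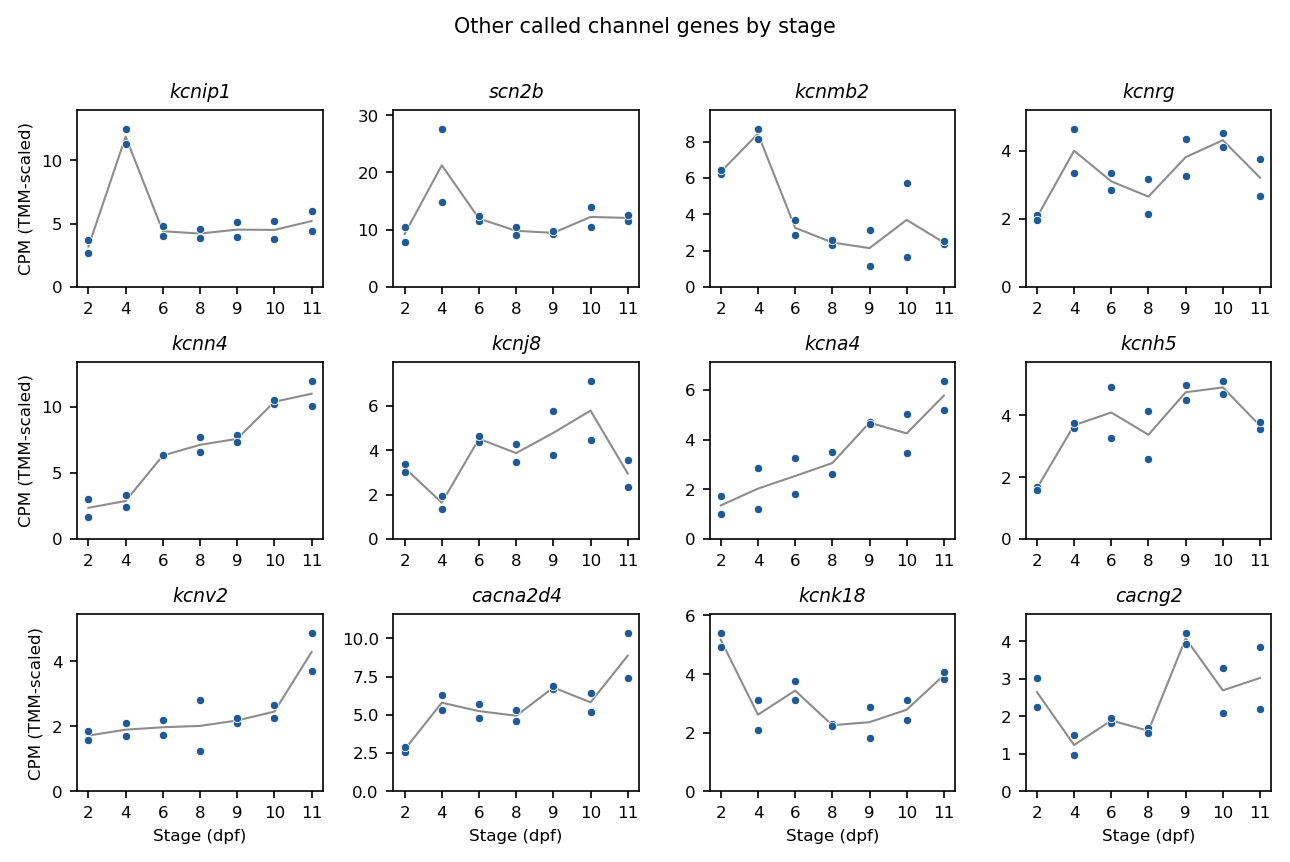
TMM-scaled CPM (y axes start at 0) by stage in dpf for 12 further members that were called in at least 1 comparison. Points are the 2 libraries of a stage and the grey line joins stage means. *kcnip1* peaks at 4 dpf with 12.5 and 11.2 CPM, while *kcnn4* is at its highest, 12.0 and 10.0 CPM, at 11 dpf.

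Across the whole span, 11 against 2 dpf, 10 of 62 members were called, against 20.8% of all tested genes. There were 9 higher, against 12.6% of all genes, and 1 lower, against 8.22%. The 9 were *kcnn4*, *scn4a*, *kcna4*, *kcnj11*, *cacna1s*, *cacna2d4*, *scn4b*, *kcnv2* and *kcnh5*, and the lower one was *kcnmb2*. The median log2FC was 0.27 over the members and -0.06 over all tested genes. Above 0 were 41 of 62 members, against 9004 of all 19310 tested genes. With library totals the median of the members was -0.00 and that of all genes -0.34, 31 members were above 0, and 12 were called, 8 higher and 4 lower.

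*kcna4* is the only Kv1 member and encodes a fast-inactivating potassium channel of neurons and heart. It had 6.35 and 5.18 CPM at 11 dpf, against 0.988 and 1.71 CPM at 2 dpf (log2FC 2.07, standard error 0.40, edgeR adjusted p = 0.00048). Its counts ran from 5 to 43 per library, and no step between neighbouring stages was called. *kcnv2*, a silent subunit that modifies other potassium channels and is known from photoreceptors, had 3.69 and 4.86 CPM at 11 dpf, against 1.83 and 1.58 CPM at 2 dpf (log2FC 1.32, standard error 0.36, edgeR adjusted p = 0.0077), and between 1.22 and 2.79 CPM at all stages in between. *cacna2d4* was at its highest at 11 dpf, with 7.39 and 10.4 CPM (log2FC against 2 dpf 1.69, standard error 0.26, edgeR adjusted p = 6.1e-05).

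*kcnv2* and *cacna2d4* are both known from the retina. The photoreceptor sum without the GTPase genes was 56.2 and 58.2 CPM at 11 dpf, against 27.1 and 27.7 CPM at 2 dpf. In between, the sum did not rise steadily, with 59.5 and 76.5 CPM at 4 dpf and 31.9 and 32.3 CPM at 10 dpf. Of its 9 tested genes 3 were called higher at 11 against 2 dpf and 2 lower, *rho* (log2FC -1.29) and *rcvrnb* (-2.26). The part of photoreceptors in the values of *kcnv2* and *cacna2d4* was not tested. *kcnh5* had 3.55 and 3.77 CPM at 11 dpf, against 1.69 and 1.58 CPM at 2 dpf (log2FC 1.15, standard error 0.35, edgeR adjusted p = 0.014). Without replicate 2 of 2 dpf or replicate 2 of 11 dpf neither *kcnv2* (adjusted p = 0.051 and 0.076) nor *kcnh5* (adjusted p = 0.065 and 0.066) was called by edgeR.

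At 9 against 8 dpf 1 of 62 members was called, against 1.28% of all tested genes and 0.461% called higher, but most members lay a little above 0. The median log2FC of the members was 0.24 and that of all tested genes was -0.05. Above 0 were 51 of 62 members, against 8604 of all 19310 tested genes. Groups of 2 or more tested members ranged widely in their median log2FC, which was not tested between groups. It was 0.81 for gamma and TARP genes, 0.58 for the 2 Kv4 members, 0.52 for the 3 Kv3 members, 0.42 for EAG/ERG/ELK, 0.38 for calcium channel pores, 0.28 for KCNQ, 0.27 for sodium channel beta subunits and 0.22 for calcium- or sodium-activated channels. It was nearer 0 for tandem-pore channels (0.13), alpha2delta subunits (0.09), potassium channel auxiliary genes (0.08), silent subunits (0.08) and inward rectifiers (-0.04). The only members of their groups, *kcna4*, *scn4a* and *cacnb1*, had 0.65, 0.23 and 0.02. Under library totals the median was 0.36 for members and 0.08 for all genes, with 55 members above 0, and under DESeq2 it was 0.25 and -0.02.

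The called gene was *cacng2*, which encodes stargazin, a partner of AMPA-type glutamate receptors. It had 3.93 and 4.22 CPM at 9 dpf, against 1.68 and 1.54 CPM at 8 dpf (log2FC 1.34, standard error 0.35, edgeR adjusted p = 0.037). Counts per library were low, between 4 and 30. Leaving out a library of 6, 8 or 9 dpf removed the call, with an adjusted p between 0.062 and 0.28 and a log2FC between 1.27 and 1.39, and with the pairs of 6, 9 and 11 dpf summed the adjusted p was 0.38. DESeq2 called 0 members here.

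Beside it stood genes of neuronal channels below the size of a call, named after their values were seen except *kcnc2*, *kcnd2* and *kcnc1*. *cacna1a*, the pore of the main calcium channel of synaptic terminals, had 63.8 and 62.4 CPM at 9 dpf, against 42.7 and 41.7 CPM at 8 dpf (log2FC 0.58, standard error 0.15, edgeR adjusted p = 0.037). The gene was also high at 2 dpf, with 64.5 and 69.8 CPM, and low at 6 dpf, with 34.4 and 37.1 CPM. *kcnc2*, which encodes a Kv3 channel that lets neurons fire fast, had 4.98 and 3.94 CPM at 9 dpf, against 2.44 and 2.12 CPM at 8 dpf (log2FC 0.98, standard error 0.32, edgeR adjusted p = 0.088).

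At the other stages *kcnc2* read 2.12 and 2.37 CPM at 2 dpf, 3.84 and 1.95 at 4 dpf, 2.54 and 2.59 at 6 dpf, 4.86 and 4.61 at 10 dpf, then 5.32 and 3.45 at 11 dpf, and it was called over the series (range 1.07, adjusted p = 0.012). *kcnc1*, the Kv3 member with the most counts, had 7.99 and 10.1 CPM at 9 dpf, against 5.95 and 6.55 CPM at 8 dpf (0.52, adjusted p = 0.27). *kcnd2* had a log2FC of 0.69 (adjusted p = 0.13) and *cacna1h*, a low-voltage-activated calcium channel pore, 0.43 (adjusted p = 0.16). In all 4 of these genes both libraries of 9 dpf lay above both of 8 dpf, but none was called in this comparison. How many of all genes were separated in this way was not counted.

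**Figure D4:**
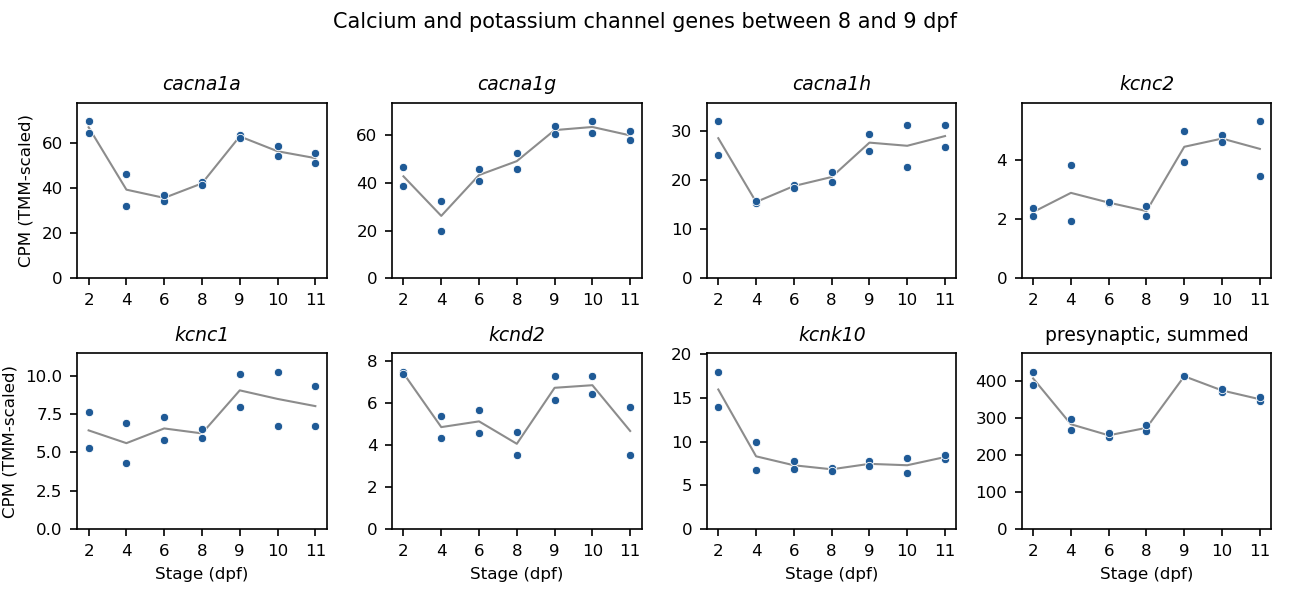
TMM-scaled CPM (y axes start at 0) by stage in dpf for 7 members and for the summed presynaptic partner genes. Points are the 2 libraries of a stage and the grey line joins stage means. *cacna1a* stands at 63.8 and 62.4 CPM at 9 dpf beside 42.7 and 41.7 CPM at 8 dpf, *kcnc2* also stands higher at 9 dpf, and *kcnk10* has its highest values at 2 dpf.

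Neuronal genes outside the members also lay mostly above 0 at 9 dpf, and so did some lists of other tissues. Presynaptic partners of calcium channels (rims, rimbp2, unc13a and nrxn genes) summed to 412 and 412 CPM at 9 dpf, against 266 and 281 CPM at 8 dpf, with 12 of 12 above 0, a median log2FC of 0.54 and 0 called. The neuron list summed to 750 and 766 CPM at 9 dpf, against 597 and 667 CPM at 8 dpf. It had 23 of 26 above 0, a median log2FC of 0.41 and 1 called higher. This count includes the synaptotagmin genes that were taken only by their stem. Partners of sodium channels at the axon initial segment had 23 of 26 above 0 and 0 called, and pacemaker (HCN) channels 4 of 4 above 0 and 0 called. Of the LOC-listed channel genes 71 of 86 were above 0 and 2 were called, *kcnc1a* (log2FC 1.07) and *cacng8b* (1.30). How far neuron content accounts for the members' values was not tested. Of the muscle markers 12 of 23 were above 0 and 0 were called here. They summed to 53234 and 53949 CPM at 9 dpf, against 52876 and 54532 CPM at 8 dpf. Excitation-contraction partners had 16 of 20 above 0, with a median log2FC of 0.44 and 1 called higher. Above 0 were also 8 of 9 photoreceptor markers without the GTPase genes (median 0.45) and 6 of 8 heart markers (median 0.30). Glial markers had 3 of 11 above 0 and ionocyte markers 3 of 8.

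The remaining calcium channel pores followed several courses. *cacna1a* (log2FC -0.79, adjusted p = 0.00065), *cacna1g* (-0.74, adjusted p = 0.0043) and *cacna1h* (-0.88, adjusted p = 0.001), named after their values were seen, were below 0 at 4 against 2 dpf by less than a call needed. *cacna1g*, the pore of a T-type channel that opens near the resting potential, held 38.7 and 46.9 CPM at 2 dpf, 32.4 and 19.9 at 4 dpf, 41.0 and 45.7 at 6 dpf, 45.8 and 52.6 at 8 dpf, 60.4 and 64.0 at 9 dpf, 61.1 and 65.9 at 10 dpf, then 57.9 and 62.0 at 11 dpf. It and *cacna1s* were the 2 of 6 pores called over the series. *cacna1d*, a pore of endocrine cells, sinus node and hair cells, ranged from 34.0 to 63.1 CPM.

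KCNQ genes encode slowly opening potassium channels. *kcnq1*, known from heart and epithelia and named after its values were seen, was at its highest at 11 dpf with 10.0 and 11.3 CPM, against 6.07 and 5.93 CPM at 2 dpf (log2FC 0.83, adjusted p = 0.0068). The gene *kcnq1.2*, listed by LOC identifier, was called lower at 11 against 2 dpf (log2FC -1.61). It was called higher at 4 against 2 dpf (1.73) and lower at 6 against 4 dpf (-1.48).

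Of the EAG, ERG and ELK genes, 4 of 4 tested were called over the series, against 50.8% of all tested genes, and a group of 4 is too small to be set apart from that share. *kcnh7*, an ERG channel gene with the most counts in this group, had 12.6 and 10.5 CPM at 2 dpf, 9.36 and 7.05 at 4 dpf, 6.30 and 6.34 at 6 dpf, 4.42 and 5.49 at 8 dpf, 7.99 and 5.20 at 9 dpf, 3.82 and 4.78 at 10 dpf, then 7.09 and 6.12 at 11 dpf (range 1.42, edgeR adjusted p = 0.0015). Both libraries of 2 dpf lay above all others, which was not counted over all genes, and no step between neighbouring stages was called. *kcnh6*, another ERG gene, ran the other way, with 6.65 and 4.86 CPM at 11 dpf, against 2.96 and 3.56 CPM at 2 dpf (log2FC 0.82, adjusted p = 0.04). Silent subunits (kcnf, kcng, kcns, kcnv) were low, with *kcnf1* having the most counts at 2.21 to 6.00 CPM and not called over the series (adjusted p = 0.36).

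Tandem-pore genes, whose channels set the resting potential, had *kcnk18* as their only call between neighbouring stages. *kcnk1*, with the most counts of the group, held 13.2 to 19.2 CPM at 2 to 6 dpf, 9.98 to 12.0 CPM from 8 to 10 dpf, and 13.4 and 16.2 CPM at 11 dpf (range 0.74, adjusted p = 0.0041, below the size of a call). *kcnk10*, a mechanically and lipid-gated leak channel gene named after its values were seen, had 17.9 and 14 CPM at 2 dpf and 6.42 to 9.90 CPM in all later libraries, and it and *kcnk18* were the 2 of 7 called over the series. At 11 against 2 dpf 1 of 7 tested tandem-pore members was above 0, against 9004 of all 19310 tested genes.

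The sodium channel beta gene *scn3b* was not called between neighbouring stages, with 8.47 to 18.6 CPM. The auxiliary genes *kcnab1*, *kcnmb4* and *kcnip2* held 1.02 to 6.89 CPM, and were not called in any comparison.

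No member was called at 10 against 9 dpf, against 1.01% of all tested genes, or at 11 against 10 dpf, against 1.14%. At an unadjusted p under 0.05 there were 3 members at 10 dpf and 9 at 11 dpf by edgeR, and 1 and 3 by DESeq2, which also called 0 in both. With either library of 4 dpf left out, edgeR called 1 member at 10 against 9 dpf. At 11 against 10 dpf *cacnb1* came near a call by adjusted p, though not by size (log2FC -0.49, standard error 0.14, edgeR adjusted p = 0.058). It had 30.6 and 35.5 CPM at 11 dpf, against 44.3 and 48.4 CPM at 10 dpf. The members' log2FC in that comparison ran from -0.95 to 0.80. *kcnj6*, the pore of a G-protein-gated channel of neurons, had 4.86 and 4.45 CPM at 10 dpf, against 2.23 and 2.25 CPM at 9 dpf (log2FC 1.05, edgeR adjusted p = 0.093), and 2.51 and 2.82 CPM at 11 dpf. *kcnj6* is named after its values were seen.

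**Figure D5:**
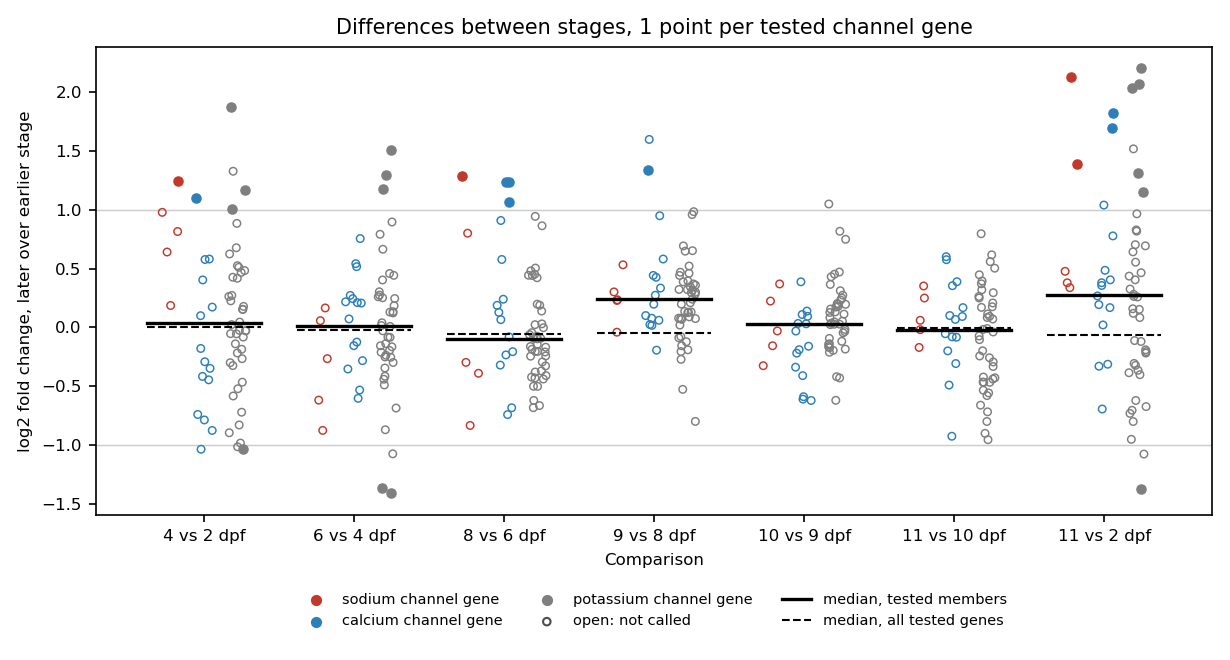
Log2 fold change of the later over the earlier stage (y axis) for each tested member in the 7 comparisons (x axis), with sodium, calcium and potassium channel genes in red, blue and grey. Filled points were called, the solid line is the median of the 62 members and the dashed line that of all 19310 tested genes. The solid line stands at 0.24 at 9 against 8 dpf and at 0.27 at 11 against 2 dpf, above the dashed line at -0.05 and -0.06, and lies within 0.05 of it elsewhere.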

How the data were processed

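Per the study's methods, each replicate was a pool of 4 embryos or larvae. Reads were trimmed by the authors (Trimmomatic 0.36) and mapped with STAR 2.7.0 to the genome GENO_Phyp_1.0. The authors assigned them to genes by HTSeq-count, whose mode and strand setting are not given in the sources used here, so that overlapping and antisense genes may share reads. The deposited file holds these raw counts for 21656 genes and 14 libraries, with 0 unused sample columns.

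Stages were compared with edgeR 4.0.16 (R 4.3.3) on the counts. Genes passed filterByExpr (19310), totals were scaled by TMM, and a single quasi-likelihood model over the 14 libraries yielded 7 comparisons and a test over all stages (common dispersion 0.0141). Members were called at a log2 fold change larger than 1 in size with p under 0.05 after Benjamini-Hochberg adjustment over all tested genes. To obtain a standard error, the log2 fold change was divided by √F.

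Members, gene lists and tests were chosen with earlier results of these data known. Named with values were the called members, the member with the most counts of each group, and *kcnc2*. All other members in the text were named after their values were seen. Counts and medians cover all tested members, of which 2 are not reported here by name. Lists of 6 cell types (neuron, skeletal muscle, heart, photoreceptor, glia, ionocyte) and of 5 partner groups (pacemaker channels, Kv4 partners, axon initial segment, excitation-contraction coupling, presynaptic) were described by counts and medians without a set test. The list of LOC-listed channel genes and the photoreceptor list without GTPase genes were made after seeing the data. Of 11307 genes under LOC identifiers 10538 were found in the name table of assembly fPanHyp1.pri, 6917 with a symbol, and no coordinates were used.

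Alternatives were DESeq2 1.42.0, library totals, RLE scaling, a minimum of 10 counts in every library, no filter, the replicate number as a block, omitting each library, and merging the pairs of 6, 9 and 11 dpf. The scripts were checked on simulated counts. Figures were drawn with matplotlib 3.10.9.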

Additional observations from a re-analysis of the deposited data

How the results depend on the processing

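Counts of called members stayed within 1.5 times in most alternatives. At 6 against 4 dpf the count was 3 in place of 5 when at least 10 counts were asked of every library, at 8 against 6 dpf it was 2 in place of 4 with the pairs of 6, 9 and 11 dpf summed, and at 9 against 8 dpf it was 0 in place of 1 with DESeq2, with at least 10 counts in every library and with the pairs summed. Leaving out 1 library gave 5 to 10 calls at 4 against 2 dpf, 2 to 7 at 6 against 4 dpf, 3 to 4 at 8 against 6 dpf, 0 to 3 at 9 against 8 dpf, 0 to 1 at 10 against 9 dpf, 0 at 11 against 10 dpf, 9 to 13 at 11 against 2 dpf and 26 to 31 over the series, and the cause was not tested. Of 26 called log2 fold changes, 23 kept their call with DESeq2, 25 with RLE scaling, 20 with library totals, 25 with no filter and 21 with the pairs summed, and between 18 (without replicate 2 of 4 dpf) and 26 without 1 library. Asking 10 counts of every library left 20 of them, of which 19 kept the call. None turned its direction. With the replicate block the counts were 5, 5, 4, 1, 0, 0 and 10 in the 7 comparisons and 28 over the series, and 25 of 26 calls were kept. Libraries with the same number come from different animals. Their deviations correlated at -0.17 between 4 and 2 dpf and between -0.01 and 0.02 otherwise. Whether such libraries share more than a number was not tested.

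Library totals in place of TMM moved the median log2 fold change of all genes from 0.00 to -0.25 at 4 against 2 dpf, -0.05 to -0.26 at 8 against 6 dpf, -0.05 to 0.08 at 9 against 8 dpf and -0.06 to -0.34 at 11 against 2 dpf, and the share of all calls that were higher from 69.7% to 45.1%, 52.6% to 20.7%, 36.0% to 65.6% and 60.6% to 38.0%. Members' median moved with it. With 2 libraries a stage, the median standard error of a member's log2 fold change was 0.27 to 0.30, and counts of a few per library limit the lowest members further.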
